A study of Equus caballus with 15 samples.

Results

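The transcriptome described here is that of untreated equine monocyte-derived macrophages, the resting state of a culture model used to study orthobiologic therapies (OTs) for joint disease. It consists of the 3 libraries labelled untreated out of 15 in the series, which holds 5 conditions of 3 libraries each. These libraries are all those that carry the label, and all genes were ranked by their mean level over these 3 libraries. The macrophages were grown from the blood mononuclear cells of 2 horses in medium with 10% fetal bovine serum and human M-CSF at 30 ng/ml, and differentiation took 5 days. The untreated cultures received neither IL-1ß, which all other conditions received at 10 ng/ml, nor any OT (MSC-CM, PRP lysate or ACS). The M-CSF and the serum were common to every condition. The study's methods describe a treatment step of 24 h followed by washing and another 24 h of culture, while the labels place lysis directly after the washes, so the age of the cultures at lysis is known only within that range. The labels do not say which horse or pool each library came from, and the study describes the untreated libraries as technical replicates. The spread given below is therefore the spread between these 3 libraries, which may be technical, and no value was tested.

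Macrophages are phagocytes that develop from blood monocytes under M-CSF, a growth factor read through the receptor CSF1R. They take up particles, dying cells and microbes through scavenger, Fc, complement and pattern recognition receptors and digest them in acidified lysosomes filled with cathepsins and other hydrolases. They also secrete proteases, matrix proteins, chemokines and cytokines, and in the joint such products act on cartilage, bone and other immune cells.

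Polyadenylated RNA was sequenced and each gene was given as its counts per 1000000 reads on genes (CPM). Replicates 1, 2 and 3 held 39155290, 35674782 and 33266077 reads on genes. A single read was worth 0.0255 CPM in replicate 1, 0.0280 CPM in replicate 2 and 0.0301 CPM in replicate 3, so counting error was small for all but the scarcest transcripts. Of 16932 genes listed, 11540 (68.2%) had a mean of at least 1 CPM, 8461 had at least 10 CPM, 2013 had at least 100 CPM and 115 had at least 1000 CPM. A further 1388 genes were at 0 in all 3 libraries, and the median of all listed genes was 9.99 CPM. Because a longer transcript gives more reads, CPM ranks genes by the share of reads they took and not by the number of molecules. A value of 0 was read with care, since RPL11, a ribosomal protein gene that every cell uses, was also listed at 0 in each library.

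The most abundant transcripts came from genes for secreted matrix-active proteins, lysosomal proteins and the cytoskeleton. SPP1 (chr3:51237909-51404909, EquCab3.0), which encodes the secreted phosphoprotein osteopontin, held the largest mean share of reads, with 14948, 13734 and 7521 CPM in replicates 1, 2 and 3 (12068 ± 3984 CPM, SD, n = 3). It ranked first in replicates 1 and 2 and 6th in replicate 3. In bulk RNA, fewer cells of a type and less RNA per cell cannot be told apart, so the lower value in replicate 3 cannot be assigned to either. MMP9 (chr22:35835605-36022435), a secreted gelatinase, gave 10319, 9645 and 10286 CPM (10083 ± 380 CPM) and was steady across the libraries. The values of SPP1 lay on both sides of those of MMP9, so the order of the leading pair was not the same in every library. CTSB (chr2:60304503-60318857), a lysosomal cysteine protease, followed with 10188, 9653 and 8054 CPM (9298 ± 1110 CPM).

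CKB, the brain-type creatine kinase that also occurs in osteoclasts, had 8681, 7918 and 9082 CPM. PSAP, the precursor of the saposins that assist lysosomal lipid breakdown, had 9069, 8491 and 7701 CPM, and ACTB, cytoplasmic actin, had 8664, 8340 and 8129 CPM. The ranges of CKB, PSAP and ACTB overlapped, and their ranks from 4 to 6 were not separated by more than their spread. Next came VIM, an intermediate filament protein, at 7616 ± 633 CPM, and LGALS3, the secreted lectin galectin-3, at 6148 ± 654 CPM. B2M, the light chain of MHC class I, had 5642 ± 756 CPM. The chemokines CCL2 and CCL8, which attract monocytes, stood at 5317 ± 867 and 4711 ± 775 CPM.

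The other genes among the 30 with the most reads were of more varied kind. The lysosomal proteases CTSD and CTSZ had 4322 ± 533 and 4144 ± 555 CPM. ACTG1, TMSB4X and CAPG, all actin or actin-binding proteins, had 4340 ± 240, 3124 ± 326 and 2531 ± 239 CPM. PKM, ALDOA and ENO1, enzymes of glycolysis, had 3504 ± 237, 2373 ± 185 and 2318 ± 171 CPM. These 8 genes serve protein digestion, cell shape and energy supply. FTL, the ferritin light chain, had 3333 ± 426 CPM, the elongation factor EEF1A1 had 3280 ± 208 CPM, the membrane-binding protein ANXA2 had 2800 ± 250.0 CPM, and CD74, the invariant chain of MHC class II, had 3073 ± 361 CPM. CSF1, the gene for M-CSF itself, took 2080, 2822 and 2994 CPM (2632 ± 486 CPM) although M-CSF was supplied in the medium as the human protein. ITGAX, the integrin subunit CD11c, had 2582 ± 302 CPM, and TIMP1, an inhibitor of matrix metalloproteinases, had 2619, 1755 and 2591 CPM. ENSECAG00000003925, which has no symbol in the annotation used, had 2863 ± 303 CPM.

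Among these 30 genes, 4 differed between their highest and lowest library by at least 1.5 times. Besides SPP1, these were GPNMB, FN1 and MRC1. GPNMB, a glycoprotein of lysosomes and the cell surface, had 3168, 3865 and 1746 CPM. MRC1, the mannose receptor CD206, had 2296, 3203 and 1519 CPM. Both were lowest in replicate 3 and highest in replicate 2. FN1, fibronectin, had 1587, 3613 and 2356 CPM, with its lowest value in replicate 1. The median coefficient of variation of the 30 genes was 11.2%, and 23 of the 30 were among the 30 leading genes of every library.

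**Figure D1:**
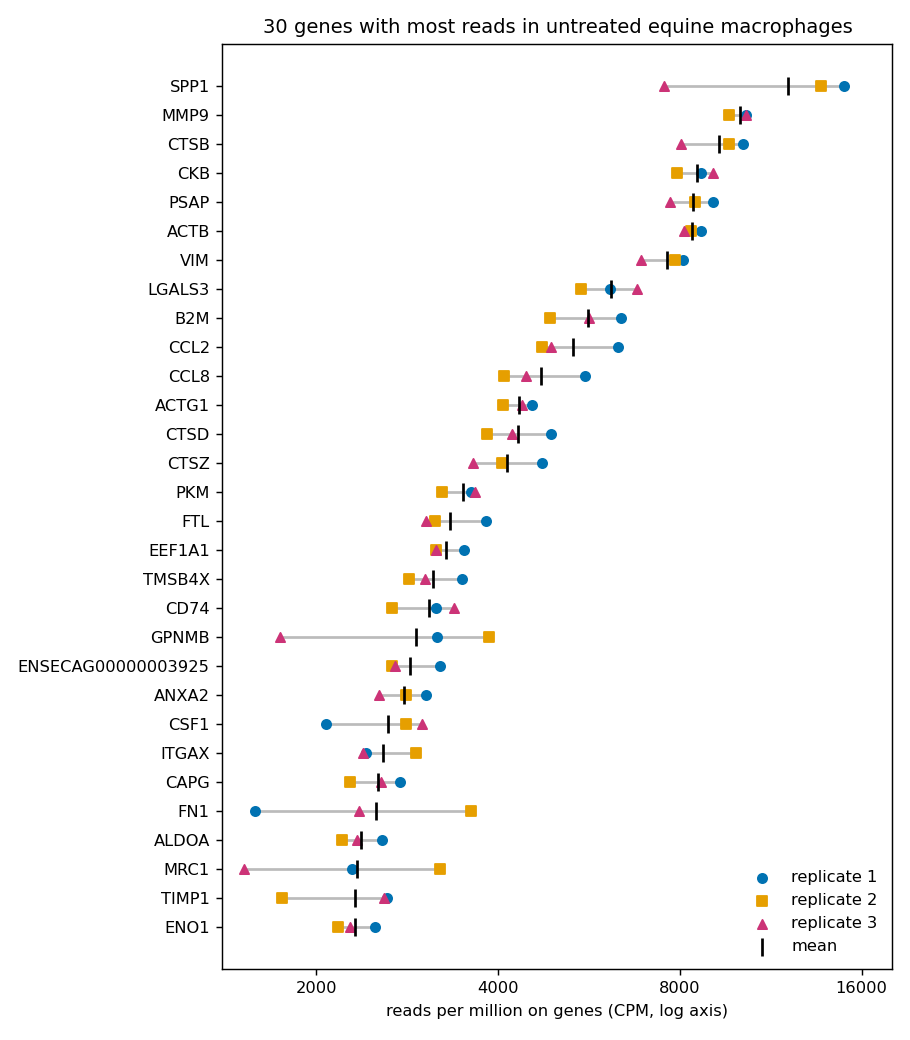
Level of the 30 genes with the highest mean, in CPM on a log axis, with each symbol standing for 1 untreated library and the vertical tick for the mean of the 3. The libraries lie close together for most genes, and the widest rows are SPP1, GPNMB, FN1 and MRC1, of which SPP1 spans 7521 to 14948 CPM.

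Reads were spread over many genes rather than held by a few. SPP1 alone took 1.21% of all reads on genes. The 10 genes of highest mean took 8.88, 8.08 and 7.50% in replicates 1, 2 and 3 (8.15 ± 0.692%), the leading 100 took 25.5 ± 1.47% and the leading 1000 took 60.3, 57.3 and 58.4%. Counted the other way, 14 genes held 10% of the reads on listed genes, 94 genes held 25%, 596 genes held 50% and 4676 genes held 90%. The concentration was highest in replicate 1 at every step from 1 to 1000 genes.

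**Figure D2:**
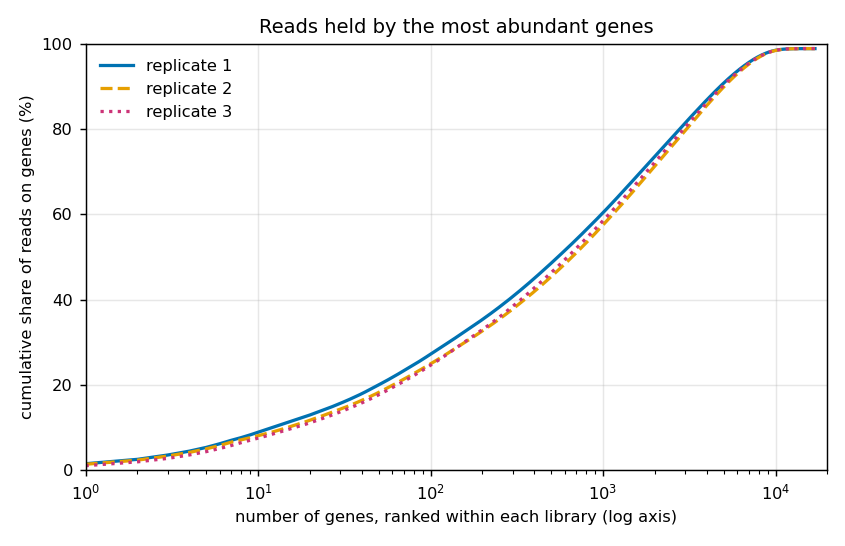
Cumulative percentage of reads on genes against the number of genes, ranked within each library from the most abundant down (log axis), with 1 line for each untreated library. The 3 lines run close together, and replicate 1 lies highest over the leading genes.

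The label of the cells was checked against macrophage markers. Of 18 marker genes with values, 17 had a mean of at least 1 CPM, and their summed level was 10858, 11988 and 7706 CPM, or 1.02 ± 0.222% of reads. All 4 defining markers were clearly above the median gene. CD68, a lysosomal glycoprotein of macrophages, had 2157, 1990 and 1911 CPM, and SPI1, the transcription factor PU.1, had 714, 595 and 677 CPM. CSF1R, the receptor for M-CSF, had 481, 539 and 385 CPM, and CD163, the receptor for haptoglobin-bound haemoglobin, had 302, 281 and 147 CPM. These 4 genes were set as defining with earlier results known, so their levels are a description. Several other genes often used for macrophages were low, and these were picked out after their values were seen. ITGAM, the integrin subunit CD11b, had 2.89, 2.44 and 1.26 CPM, and the collagenous scavenger receptor MARCO had 2.66, 1.60 and 1.77 CPM. LYZ, lysozyme, had 5.95, 8.02 and 4.78 CPM, and the complement subunits C1QB and C1QC had 6.01 ± 1.48 and 9.71 ± 1.65 CPM. VSIG4, a complement receptor of resident macrophages, was near 0 at 0.0621 CPM. Genes of this low group were below or near the median of all listed genes.

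Receptors for macrophage growth factors and cytokines were represented broadly. All 21 cytokine receptor genes with values had at least 10 CPM, with a median of 115 CPM and a summed level of 4969 ± 225 CPM. The highest were IL4R, the receptor chain shared by IL-4 and IL-13, at 991, 985 and 1133 CPM, and TNFRSF1B, the second TNF receptor, at 668, 741 and 1112 CPM. CSF1R came next, and IL10RB, a shared chain of the IL-10 receptor family, had 477, 449 and 459 CPM. TNFRSF1B was highest in replicate 3, while CSF1R was lowest there. The signalling receptor for IL-1ß, IL1R1, and the decoy receptor IL1R2 were at 14.2 and 50.9 CPM, values named here because IL-1ß is the stimulus used in the other conditions.

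Receptors for uptake were led by a few abundant genes. Of 19 scavenger receptor genes, 15 had at least 1 CPM, with a sum of 6716 ± 1188 CPM and a median of 145 CPM. MRC1 and CD68 together with LRP1, an endocytic receptor for many ligands, and CXCL16, a membrane chemokine that binds oxidised lipoprotein, were the 4 highest. LRP1 had 474, 769 and 492 CPM, and CXCL16 had 385, 332 and 362 CPM. SCARA3 was listed at 0. Among 12 Fc and complement receptor genes, 9 had at least 1 CPM. ITGAX led with 2420, 2930 and 2395 CPM, followed by FCER1G, the signalling chain of Fc receptors, with 865, 632 and 579 CPM. ITGB2, the partner chain of the leukocyte integrins, had 536 ± 18.0 CPM, and FCGRT, the neonatal Fc receptor, had 250.0 ± 29.0 CPM. The chain ITGAX thus held far more reads than ITGAM within the same list. The genes for the Fc gamma receptors FCGR1A, FCGR2B and FCGR3A were not analysed here.

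Lists of receptors for microbial products, with adaptors and cytosolic sensors, and for chemoattractants had lower sums than the lists above. Members without values, among them TLR4, CLEC7A, FPR1, FPR2 and CXCR2, were not analysed here. Of 26 pattern recognition genes, 25 had at least 1 CPM, yet their median was 15.0 CPM and their sum 1104 ± 88.9 CPM. The highest was TYROBP, a signalling adaptor for TREM2 and related receptors, with 356, 254 and 305 CPM. The RNA sensors DDX58 and IFIH1 had 115 ± 18.5 and 83.8 ± 20.1 CPM, and STING1, an adaptor for cytosolic DNA sensing, had 95.0 ± 8.98 CPM. CD14, the co-receptor for lipopolysaccharide and a common monocyte marker, had 2.86, 2.19 and 2.68 CPM, similar in every library. CD14 is 1 of 12 symbols whose value stands for more than 1 gene identifier, and its value need not mean low expression, since whether reads shared between its gene models were counted was not tested. In the chemoattractant list, 12 of 14 genes had at least 1 CPM, and CCR1 led with 284, 368 and 297 CPM. CCR7, a receptor that guides cells to lymph nodes, had 146, 159 and 234 CPM. LTB4R, the leukotriene B4 receptor, and GPR183, an oxysterol receptor, had 145 ± 12.3 and 138 ± 19.7 CPM.

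Genes for the uptake of dying cells had the lowest sum of the 6 receptor lists, 772 ± 99.5 CPM, with 8 of 12 at 1 CPM or more. Their median of 30.0 CPM was not the lowest. The pattern recognition, chemoattractant and Fc and complement lists had medians of 15.0, 24.8 and 27.0 CPM. The integrin subunits ITGB5 and ITGB3 had 254 ± 34.1 and 226 ± 57.1 CPM, and DOCK2 and ELMO1, which drive actin rearrangement, had 99.1 ± 18.2 and 74.0 ± 5.51 CPM. Across the 6 lists together, which also hold adaptors, cytosolic sensors and ligands, 90 of 104 genes had at least 1 CPM. These lists took 1.87 ± 0.141% of reads. Only 3 of the 100 leading genes of the transcriptome belonged to them.

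Lysosomal genes held a far larger share of reads. The lists of cathepsins, hydrolases, membrane proteins and the proton pump contained 86 genes with values, of which 84 had at least 1 CPM and 19 were among the leading 100 genes. Together they took 7.41, 6.93 and 6.20% of reads (6.85 ± 0.606%), lowest in replicate 3.

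The cathepsins were the strongest of these groups. Of 15 genes, 14 had at least 1 CPM and 8 had at least 1000 CPM, giving a median of 1649 CPM against 9.99 CPM for all listed genes. CTSB, CTSD and CTSZ have been given above, and CTSL had 2694, 1994 and 2251 CPM. The other 4 above 1000 CPM were LGMN, an asparaginyl protease, CTSS, CTSK and CTSC, with means from 1649 to 2208 CPM. The summed level was 32124, 28332 and 26038 CPM. All of these proteases digest proteins in the endosome and lysosome, and CTSK also cleaves bone collagen.

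Hydrolases of lipids, sugars and nucleic acids were detected almost completely, with 34 of 35 genes at 1 CPM or more and a sum of 21337 ± 1514 CPM. After PSAP came NPC2, a carrier of cholesterol out of the lysosome, with 2340, 1931 and 2002 CPM. PLD3, an exonuclease of the lysosome, had 1647, 1339 and 1254 CPM. In the list of membrane proteins, all 19 genes passed 1 CPM, led by GPNMB, LAPTM5, LAMP1 and the chloride transporter CLCN7. LAPTM5 had 1541 ± 89.3 CPM, LAMP1 had 1432 ± 186 CPM and CLCN7 had 533 ± 30.3 CPM, so that GPNMB was the member that differed most between the libraries. All 17 genes of the vacuolar proton pump, which acidifies the lysosome, were above 1 CPM, with a median of 515 CPM and a sum of 9921 ± 553 CPM. ATP6V1B2 had 2263 ± 174 CPM, ATP6V0C had 1150 ± 109 CPM, TCIRG1 had 1080 ± 13.8 CPM and ATP6AP1 had 1071 ± 99.8 CPM.

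Genes linked with osteoclasts, the bone-resorbing relatives of macrophages, were also abundant, with 13 of 15 at 1 CPM or more and a sum of 22583, 21299 and 22543 CPM. MMP9, CKB and CTSK led the list, and the 4th was CD81, a tetraspanin found on many cells, with 503, 427 and 551 CPM. Other members, named after their values were seen, included the genes for the cell fusion proteins OCSTAMP, with 304, 250 and 397 CPM, and DCSTAMP, with 143, 187 and 119 CPM. ACP5, tartrate-resistant acid phosphatase, had 188, 146 and 139 CPM. In contrast, TNFRSF11A, the receptor RANK, had 3.39 ± 1.04 CPM, and CALCR, the calcitonin receptor, was at 0, 0 and 0.150 CPM. MMP9 and CKB are also made by other cells, and no osteoclast was identified from this list.

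Secreted products took 6.42, 6.03 and 5.69% of reads (6.05 ± 0.365%), from 109 genes with values of which 90 had at least 1 CPM. Most of this came from matrix proteins and proteases, which summed to 36955, 37205 and 28438 CPM and were lowest in replicate 3. Of the 21 detected members, 9 were lowest in replicate 3, 7 in replicate 1 and 5 in replicate 2, and 12 were highest in replicate 2. Of all detected genes, 28.7% were lowest in replicate 3 and 41.8% were highest in replicate 2. SPP1, MMP9, FN1 and TIMP1 were the 4 highest of 25 genes, and 21 of the 25 had at least 1 CPM. Without SPP1 the sum was 22131 CPM.

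The chemokine list had 19 of 25 genes at 1 CPM or more and a sum of 17415, 13601 and 16965 CPM. CCL2, with 6313, 4738 and 4901 CPM, and CCL8, with 5581, 4096 and 4458 CPM, supplied most of it and were both highest in replicate 1. CCL3 and CCL5, which attract monocytes and T cells, had 1419, 1307 and 2172 CPM and 1235, 884 and 1478 CPM. These were both highest in replicate 3. Of the 19 detected chemokines, 12 were highest in replicate 3, 6 in replicate 1 and 1 in replicate 2. Of all detected genes, 35.0% were highest in replicate 3, 23.2% in replicate 1 and 41.8% in replicate 2.

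Cytokine and growth factor genes were present at very unequal levels. Of 39 genes, 35 had at least 1 CPM, but the median was 17.6 CPM and 3 genes were above 1000 CPM. Those 3 were CSF1, IL18BP, a soluble binding protein that blocks IL-18, with 2104, 1916 and 2836 CPM, and GRN, the lysosomal and secreted protein progranulin, with 2161, 1814 and 1916 CPM. CXCL8, the neutrophil attractant IL-8, was next with 655, 598 and 940 CPM. Some other cytokines had few reads, and 4 of them are named after their values were seen. IL1B had 8.96, 8.19 and 12.6 CPM, IL6 had 34.3, 48.2 and 32.3 CPM, and IL10 had 14.1, 11.8 and 10.6 CPM. TNF had 43.2, 34.1 and 83.6 CPM, with its highest value in replicate 3. IL12B and IGF1 were listed at 0 in all 3 libraries.

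Complement and antimicrobial products contributed few reads. Of 11 complement genes, 9 had at least 1 CPM and the sum was 449 ± 61.8 CPM. CFP, properdin, a stabiliser of the alternative pathway, had 286, 211 and 251 CPM. C2 and C1R had 53.8 ± 8.89 and 49.9 ± 8.73 CPM, the inhibitor SERPING1 had 50.1, 35.4 and 59.2 CPM, and C5 was listed at 0. Of 11 antimicrobial genes, 7 had at least 1 CPM and the sum was 762 ± 92.9 CPM. The chitinase CHIT1, an enzyme of activated macrophages, had 470, 389 and 488 CPM, and CST3, a secreted inhibitor of cathepsins, had 302, 238 and 195 CPM. RNASE6 and RNASE4 had 45.4 ± 23.0 and 8.29 ± 1.02 CPM. The lipid-handling list, which includes galectins, held 17 of 18 genes at 1 CPM or more and summed to 11396 ± 612 CPM. After LGALS3, it was led by the lipoprotein lipase LPL at 1838 ± 233 CPM, LGALS1 at 1606 ± 332 CPM and the fatty acid binding protein FABP5 at 759 ± 114 CPM. APOE, a lipid carrier that macrophages secrete, had 33.3, 27.6 and 30.7 CPM and was named after its value was seen.

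**Figure D3:**
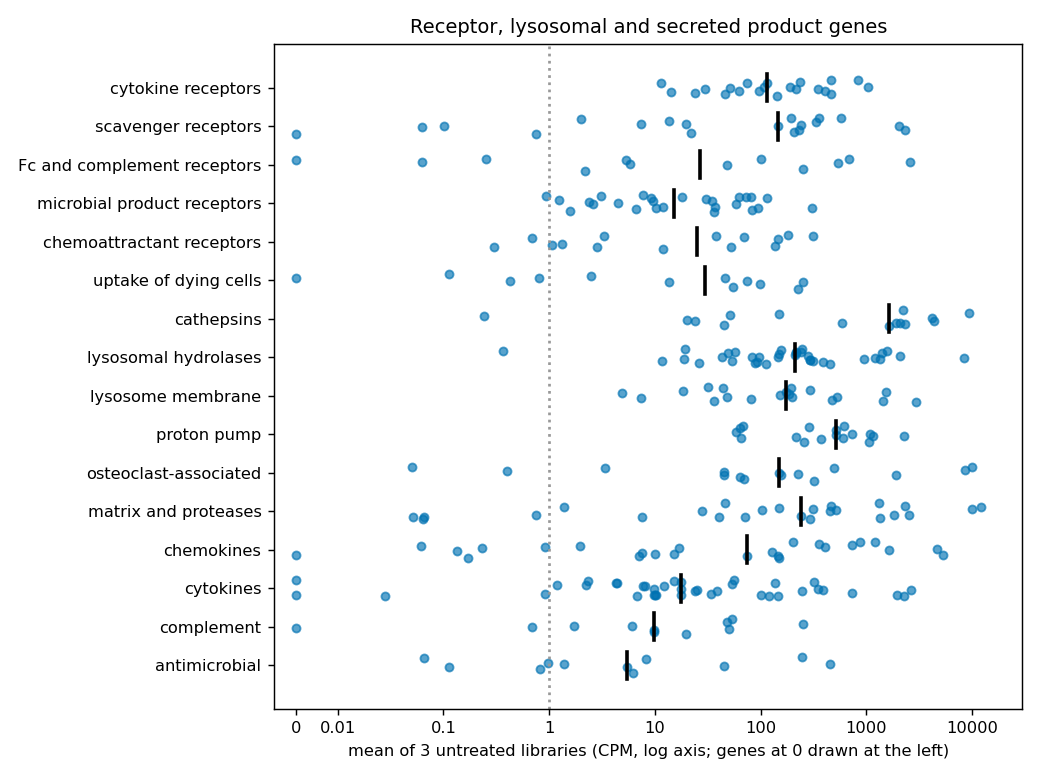
Mean of the 3 untreated libraries for every gene with a value in 16 lists of receptors, lysosomal genes and secreted products, in CPM on a log axis. Each dot is a gene, the black bar is the median of the list, the dotted line marks 1 CPM and genes at 0 stand at the left edge. The cathepsins have the highest median, 1649 CPM, and the antimicrobial products the lowest, 5.43 CPM.

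Marker genes of classical (M1) and alternative (M2) activation were both represented, with shares above 1 CPM to be read against the 68.2% of all listed genes. In the classical list, 16 of 18 genes had at least 1 CPM and the sum was 5512 ± 519 CPM. GBP5, an interferon-induced GTPase, had 2202, 1806 and 1700 CPM, ICAM1, an adhesion molecule, had 1026, 991 and 1226 CPM, and the transcription factor IRF1 had 615, 528 and 746 CPM. CCL5 completed the leading 4. IL12B was at 0, and NOS2, inducible nitric oxide synthase, had 0, 0 and 0.120 CPM. In the alternative list, 13 of 17 genes had at least 1 CPM and the sum was 4861 ± 904 CPM. It was led by MRC1, by TGM2, a transglutaminase, at 1386, 1417 and 1143 CPM, by CD163 and by the scavenger receptor MSR1 at 217, 273 and 203 CPM. The sum of the alternative list was 4842, 5775 and 3967 CPM, and this order was that of MRC1. Without MRC1 the sum was 2522 ± 65.7 CPM, and of the 13 detected members 7 were highest and 6 were lowest in replicate 3, against 35.0 and 28.7% of all detected genes. The medians of the classical and alternative lists were 61.3 and 65.6 CPM, and neither list describes the state of a single cell.

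Genes for antigen presentation were strongly represented, with all 27 above 1 CPM and a sum of 18424 ± 1745 CPM. B2M and CD74 led, followed by DRA, an MHC class II alpha chain, with 1724, 1397 and 1518 CPM and CALR, a chaperone of MHC class I loading, with 1191, 1018 and 1175 CPM. MHC genes are multigene families, and reads may have been divided among near-identical copies. All 42 transcription factor genes on the list had at least 1 CPM, with ATF3 at 1258 ± 243 CPM, BHLHE40 at 1032 ± 227 CPM and JUNB at 846 ± 242 CPM. The transcription factor list was highest in replicate 3 and lowest in replicate 1. Interferon-stimulated genes, all 22 of which had at least 1 CPM, summed to 3513, 3275 and 2842 CPM. Among them OAS3, IFI6 and OASL, effectors against viruses, had 281 ± 33.5, 272 ± 56.4 and 198 ± 14.5 CPM.

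Transcripts of other blood cells were present in each library. For each cell type, the count at 1 CPM or more is to be read against the 68.2% of all listed genes. T cell transcripts were the most evident, with 18 of 19 marker genes at 1 CPM or more and a sum of 1310, 1381 and 1859 CPM, which is 0.152 ± 0.0298% of reads. The invariant chains of the T cell receptor complex that define the type were all detected. CD3E had 156, 140 and 220 CPM, CD3G had 84.1 ± 18.7 CPM, and CD3D had 56.7, 72.7 and 91.3 CPM. All 3 chains were highest in replicate 3. ICOS, a costimulatory receptor of activated T cells, led the list with 277, 309 and 338 CPM, and CD6 had 127, 126 and 210 CPM. IL7R, another symbol with more than 1 identifier, was listed at 0. Among the cytokines, a few genes best known from T cells also had reads and were picked out after their values were seen. IL13 had 20.6, 14.6 and 17.6 CPM, IFNG had 9.50, 7.40 and 12.6 CPM, and IL4 had 3.63, 4.40 and 4.90 CPM. The number of T cells in the cultures cannot be read from this share of reads.

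Natural killer and cytotoxic cell markers summed to 566, 400 and 661 CPM (0.0542 ± 0.0132% of reads), with 15 of 16 genes at 1 CPM or more. PRF1, perforin, had 113, 86.0 and 118 CPM, and GNLY and NKG7, both of cytotoxic granules, had 99.3, 63.5 and 138 CPM and 88.4, 52.4 and 96.2 CPM. Replicate 2 was lowest for each of these genes. PRF1 is a defining marker of this list, and the other defining markers were far lower, with NCR1 at 4.23 ± 1.48 CPM and KLRD1 at 3.91 ± 0.115 CPM. Whether natural killer cells or cytotoxic T cells gave the reads of PRF1, GNLY and NKG7 was not tested. For B cells, 11 of 15 markers (73.3%) had at least 1 CPM, close to the 68.2% of all listed genes. The B cell sum was 299, 289 and 304 CPM. The immunoglobulin joining chain JCHAIN, with 159, 145 and 168 CPM, and the adaptors and receptors BLNK and CD22, at 57.8 ± 7.33 and 24.2 ± 1.23 CPM, supplied most of it. The defining markers CD79A and MS4A1 were at 9.63 ± 2.83 and 2.33 ± 0.199 CPM.

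Monocyte markers gave a mixed picture. Their sum was 842, 979 and 673 CPM, with 6 of 7 genes at 1 CPM or more, but it came from VCAN, a matrix proteoglycan, at 495, 612 and 257 CPM and from CSF3R, the G-CSF receptor, at 323, 326 and 389 CPM. The defining marker CD14, with the limit given above, had 2.57 ± 0.348 CPM. Neutrophil markers reached 1 CPM in 4 of 12 genes. CSF3R, TNFAIP6 and MMP25, at 346 ± 37.0, 298 ± 42.7 and 40.4 ± 2.33 CPM, made up nearly the whole sum of 689 ± 26.6 CPM, and CSF3R is also on the monocyte list. MPO, the granule peroxidase that defines neutrophils and their precursors, had 0.970, 1.91 and 0 CPM.

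Platelets and red cells left very few reads. Platelet and megakaryocyte markers summed to 14.7, 19.9 and 15.3 CPM, of which SELP, P-selectin, gave 7.53, 14.5 and 6.46 CPM. The defining markers ITGA2B and GP9 had 2.13 ± 0.700 and 0.107 ± 0.0947 CPM, and PPBP, a platelet chemokine, had 1.97 ± 0.990 CPM. Erythroid markers summed to 5.36, 3.92 and 3.91 CPM. The alpha globin gene HBA had 1.23, 1.04 and 1.29 CPM, and the transcription factors KLF1 and GATA1 had 1.19 ± 0.118 and 0.890 ± 0.336 CPM. The erythroid and platelet sums were the lowest of the 14 cell types examined.

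Among dendritic cell markers, 10 of 13 had at least 1 CPM and the sum was 715, 767 and 851 CPM. FSCN1, an actin-bundling protein, had 225 ± 16.4 CPM, WDFY4, needed for cross-presentation, had 216 ± 28.6 CPM, and CCR7 had 180 ± 47.5 CPM. Which cells gave these reads was not tested. The defining markers were near or at 0, with FLT3 at 1.65 ± 0.440 CPM, XCR1 at 0, 0.0280 and 0.301 CPM and CLEC9A listed at 0. For plasmacytoid dendritic cells, 5 of 6 genes had at least 1 CPM. IRF7 and BLNK had 89.6 ± 10.2 and 57.8 ± 7.33 CPM, TCF4, the defining marker, had 14.3 ± 3.29 CPM, and TLR9 had 4.49, 2.52 and 2.16 CPM.

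Mast cell and basophil markers summed to 23.3 ± 4.32 CPM. FCER1A, SLC18A2 and IL1RL1 had 9.77 ± 4.84, 5.18 ± 0.448 and 3.19 ± 1.52 CPM, and the defining markers MS4A2 and HDC had 0.873 ± 0.610 and 0.848 ± 0.483 CPM. In the eosinophil list, EPX, eosinophil peroxidase, had 0.144 ± 0.130 CPM, and ALOX15 and CCR3 had 0.308 ± 0.108 and 0.299 ± 0.233 CPM. ADGRE1, which macrophages of many species also express, had 33.2, 62.6 and 27.2 CPM and made up 98.2% of the eosinophil sum. Stromal cells were represented by LOX, ACTA2 and THY1 at 31.8 ± 12.4, 29.8 ± 2.77 and 7.04 ± 2.26 CPM, while the defining collagen genes COL1A1 and COL1A2 had 0.336 ± 0.269 and 0.345 ± 0.222 CPM and PDGFRA had 0.135 ± 0.119 CPM. In the endothelial list, PECAM1, which leukocytes also carry, had 274, 280 and 151 CPM and made up 85.5% of the sum. The receptor TEK had 15.3, 29.9 and 19.6 CPM, the cadherin CDH5 had 7.36, 8.58 and 12.7 CPM, and VWF, von Willebrand factor, had 0.0481 ± 0.0433 CPM. For the eosinophil, stromal and endothelial lists, the sum therefore came from genes other than most of the defining markers.

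**Figure D4:**
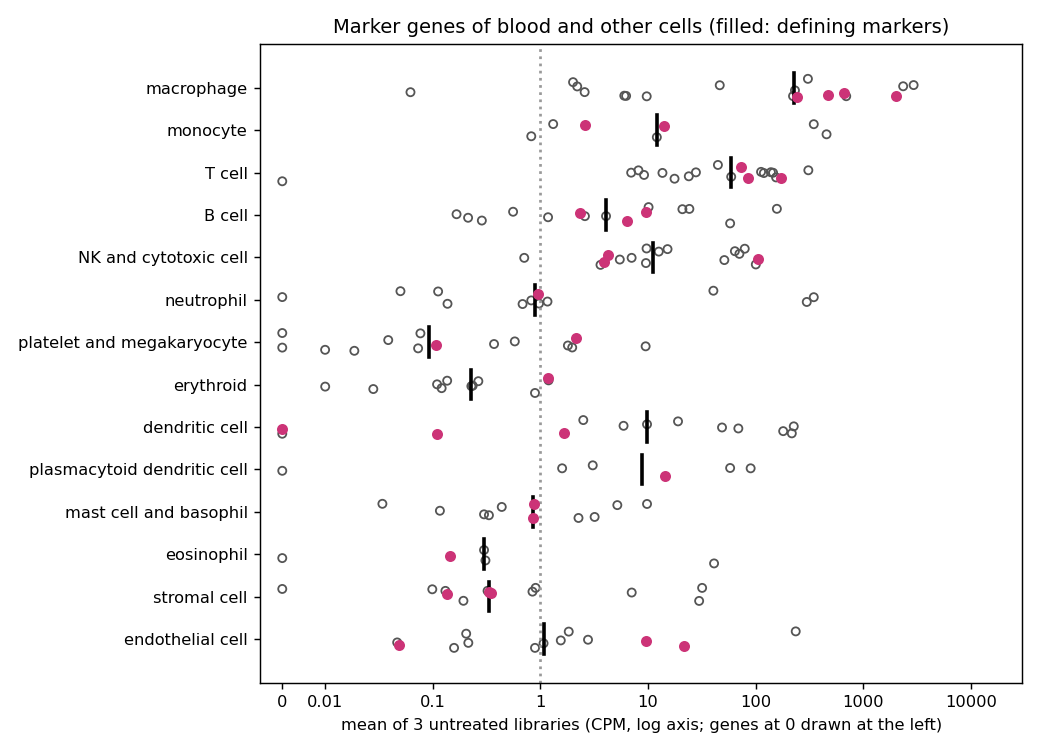
Mean of the 3 untreated libraries for marker genes of 14 cell types, in CPM on a log axis. Each circle is a gene, filled circles are the defining markers, the black bar is the median of the list, the dotted line marks 1 CPM and genes at 0 stand at the left edge. All defining macrophage markers lie above 100 CPM and those of T cells above 10 CPM, while those of platelets, erythroid cells, stromal cells and mast cells lie near or below 1 CPM.

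The 3 libraries resembled each other but were not interchangeable. Pearson's r of log2(CPM + 1) across the 11540 detected genes was 0.983 between replicates 1 and 2, 0.987 between replicates 1 and 3 and 0.981 between replicates 2 and 3, where genes are not independent replicates. The median coefficient of variation of a gene was 14.8%, while counting error alone would give 3.21%. For 66.8% of the genes the observed value was more than 3 times that of counting error, and 996 genes (8.63%) differed at least 2-fold between their highest and lowest library. Among genes from 100 to 1000 CPM the median was 11.2%.

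Replicate 3 differed from the others in several groups at once. Of the 17 macrophage markers with at least 1 CPM, 12 were lowest in replicate 3 and 0 were highest there. Of the 18 T cell markers, 13 were highest in replicate 3 and 2 were lowest there. Cathepsins were lowest in replicate 3 in 9 of 14 genes, and the proton pump in 12 of 17, whereas 19 of 35 cytokines and 13 of 18 proliferation genes were highest in it. For comparison, 35.0% of all genes with at least 1 CPM were highest and 28.7% were lowest in replicate 3. The part that the amount of T cell RNA has in the lower macrophage markers was not tested.

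Replicate 2 stood apart in another way. Of 65 ribosomal protein genes with at least 1 CPM, 64 were lowest in replicate 2, and their sum was 37686, 29820 and 36481 CPM. Of all detected genes, 31.6% were lowest and 41.8% were highest in replicate 2, and of the 115 genes with 1000 CPM or more 53.9% were lowest there. The genes RPS2, RPLP0, RPL4 and RPL10 led this list with 1770 ± 183, 1712 ± 156, 1525 ± 92.3 and 1222 ± 137 CPM. Genes with long spans on the genome tended to be highest in replicate 2, a description made after the data were seen. This was seen over the 8459 genes averaging 10 CPM or more whose span was at most 3 Mb. In the fifth of these with the longest spans, 71.9% were highest in replicate 2, and in the fifth with the shortest spans 15.0% were. The median difference from the 3-library mean on the log2 scale was 0.20 for the longest and -0.12 for the shortest genes in replicate 2. The part that gene span has in the lower ribosomal protein values of replicate 2 was not tested. Cytoskeletal genes were the steadiest list, at 42669, 40918 and 40785 CPM. The sum of the osteoclast-associated list was also steady, but it came mostly from MMP9 and CKB, and the median of its 13 detected members relative to their means was 1.01, 1.12 and 0.882 in replicates 1, 2 and 3.

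**Figure D5:**
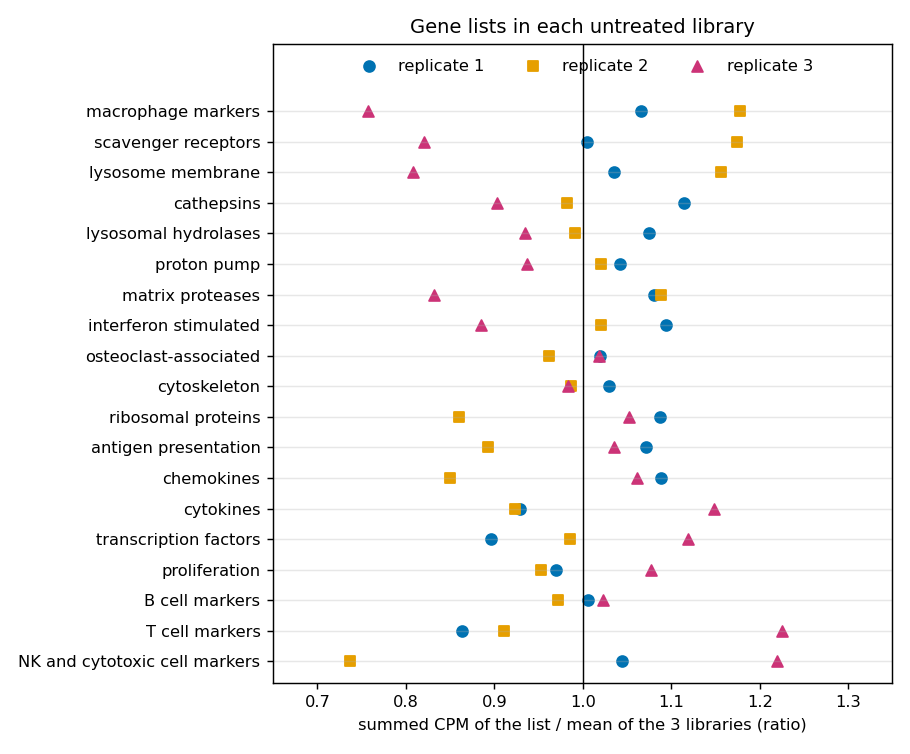
Summed level of 19 gene lists in each untreated library, divided by the mean of the 3 libraries, so that 1 marks the mean. Each symbol is a library. Replicate 3 lies lowest for macrophage markers, scavenger receptors and lysosome membrane genes and highest for T cell markers, replicate 2 lies lowest for ribosomal protein genes, and the cytoskeletal list shows little spread.

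The genes that differed most between the libraries, among those averaging 10 CPM or more, were of mixed kind. ENSECAG00000007258 and ENSECAG00000031522, which have no symbol, had 41.9, 15.1 and 203 CPM and 37.9, 26.2 and 153 CPM. CXCL13, a B cell attracting chemokine, had 8.84, 33.1 and 9.20 CPM, and ZBED6, a transcriptional repressor, had 4.83, 21.1 and 7.85 CPM. ENSECAG00000039383, also without a symbol, had 7.64, 3.90 and 18.7 CPM. Replicate 3 was highest for the genes without a symbol, and replicate 2 was highest for CXCL13 and ZBED6. CCL17, a chemokine that attracts T cells and was picked out after its values were seen, had 152, 113 and 341 CPM.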

How the data were processed

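RNA was sequenced from 15 libraries of equine macrophages, and the 3 untreated ones were described. The authors trimmed reads at a Phred score of 20 with cutadapt, aligned them with STAR 2.7.3 to EquCab3.0, annotated them with Ensembl and counted them with HTSeq in Partek Flow, and deposited the counts of each gene per 1000000 reads on genes (CPM). The strand setting and gene filters are not given in the sources used here, and DESeq was named for their comparisons. Between 1.07 and 1.09% of the reads of each untreated library lay on features not analysed here.

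The CPM step of a single read was found for each library and gave back whole numbers of reads. All values under 5000 reads, 100% in each library, lay within 0.05 of a whole read. No count test was run because nothing was compared. All 15 columns matched a sample by name and 0 did not.

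Means, standard deviations and coefficients of variation over the 3 libraries were computed with Python 3.11.15 and pandas 2.3.3, and TMM factors with edgeR 4.0.16, after a check on simulated data. A mean of 1 CPM or more was taken as detected, and correlations used a pseudocount of 1. A gene with 0 reads in all 3 libraries could have up to 0.0278 CPM, the level of 3 reads over the group. This limit covers counting error only. The text names the 30 genes of highest mean, the 4 highest of each of 28 gene lists with values, all defining markers and the 3 highest genes of 14 cell types, and the 5 most variable genes above 10 CPM. Genes outside this rule are said to be so, and a few genes within it are not reported here. The libraries and lists were chosen with earlier results of these data known. The 13 mitochondrial genes of another list were not analysed here. Alternatives were other scaling factors, other detection thresholds, no filter, another pseudocount, ranking by the lowest library, each list without its highest gene, and each library left out. Spans over 3 Mb, of 2 genes, were left out of overlaps and span groups. Reads shared between near-identical or overlapping genes cannot be assigned from these values.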

Additional observations from a re-analysis of the deposited data

How the results depend on the processing

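No paired analysis was possible because every result is a description of 1 group and comes from no test. Ranking per kilobase of coding length was not run, since no lengths matched these genes. Size factors, TMM factors, another detection threshold and ranking by the lowest library changed no value by more than the spread, or no count by more than 1.5 times, among the results they were applied to, except in the spread measures below. Leaving out each library kept every list sum within 1.5 times of its value, and the eosinophil sum, which changed most, lay between 30.9 and 48.6 CPM.

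Without its highest gene, each list sum fell by construction, since 1 gene was removed. The sums were then 3933 CPM for cytokine receptors, 4377 for scavenger receptors, 1641 for Fc and complement receptors, 798.7 for pattern recognition receptors, 644 for chemoattractant receptors and 518 for uptake of dying cells. They were 19533 CPM for cathepsins, 12917 for hydrolases, 5452 for lysosome membrane, 7659 for the proton pump, 313.5 for antimicrobial products, 199.6 for complement, 5248 for lipid handling, 22131 for matrix and proteases, 7177 for cytokines and 10676 for chemokines. They were 12782 CPM for antigen presentation, 2391 for iron, 3609 for classical and 2522 for alternative activation, 33079 for cytoskeleton, 27242 for housekeeping, 12058 for osteoclast-associated genes, 5863 for oxidase and antioxidant genes, 1509.6 for proliferation and 1913 for interferon-stimulated genes. For cell types they were 7258 CPM for macrophages, 377 for monocytes, 1209 for T cells, 140.3 for B cells, 343 for neutrophils, 7.17 for platelets, 3.21 for erythroid cells, 552 for dendritic and 76.8 for plasmacytoid dendritic cells, 13.6 for mast cells and basophils, 0.751 for eosinophils, 40.1 for stromal and 39.9 for endothelial cells. The sums of transcription factors, ribosomal proteins and natural killer cell markers moved by less than their spread.

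The mean pairwise r was 0.981 with a pseudocount of 0.1 and 0.992 without a filter, and from 0.981 to 0.987 as each library was left out. The median coefficient of variation was 19.6% without a filter, which adds genes of few reads, and from 10.4 to 13.5% as each library was left out, which uses fewer samples. The lowest value was that without replicate 2. Beyond these, 3 reads over the group, 0.0278 CPM, is the least that could be seen. Depth did not limit the abundant genes, while the markers at or under 1 CPM rest on few reads.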

Other observations

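Groups outside the receptor, lysosome and secretion lists added to the picture of the resting cells. Cytoskeletal genes, all 28 above 1 CPM, took 4.15 ± 0.105% of reads, and the general cellular genes of the housekeeping list, 23 of 23 above 1 CPM, took 3.29 ± 0.232%. In the oxidase and antioxidant list, all 20 genes were above 1 CPM, led by thioredoxin TXN at 1220 ± 186 CPM, the peroxiredoxin PRDX1 at 1119 ± 106 CPM, and CYBA and CYBB, the membrane subunits of the phagocyte NADPH oxidase, at 697 ± 105 and 682 ± 136 CPM. Proliferation genes were present in every library. All 18 were above 1 CPM, with a sum of 1793, 1762 and 1991 CPM, and HMGB2, MCM6, MCM5 and TOP2A had 339 ± 37.3, 210 ± 8.10, 188 ± 24.9 and 143 ± 31.6 CPM. Which cells of the culture gave these reads was not tested. Iron genes summed to 5725 ± 497 CPM with 15 of 18 above 1 CPM. FTL supplied most of this, followed by the transferrin receptor TFRC at 410, 765 and 370 CPM, haem oxygenase HMOX1 at 504 ± 41.4 CPM and the ferritin receptor NCOA4 at 345 ± 42.4 CPM. FTH1, the ferritin heavy chain, had 82.5, 63.4 and 74.4 CPM, and the iron exporter SLC40A1 had 0.461 ± 0.239 CPM. Both were named after their values were seen.

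The abundant genes were also looked at by their place in EquCab3.0, with positions as deposited. Chromosome 11 held 10 of the 100 leading genes and 7.25% of reads from 723 detected genes, and chromosome 1 held 7 leading genes and 7.71% of reads from 899 detected genes. Within 100 kb of each other lay 5 pairs of leading genes. CCL8 (chr11:38814074-38816073) and CCL2 (chr11:38886881-38888825) were one pair. CCL3, ENSECAG00000024790 and CCL5 formed a row on the same chromosome, EIF4A1 lay 1024 bp from CD68, and CTSK lay 21118 bp from CTSS on chromosome 5. The spans of 6 of the 30 leading genes overlapped another listed gene, as did 18.5% of all listed genes. The span of MMP9 covers 187 kb and overlaps CD40, a receptor of antigen-presenting cells, at 106 CPM, and NCOA5 at 53.8 CPM. The span of SPP1 overlaps MEPE at 0.266 CPM, and that of CTSZ overlaps GNAS at 93.8 CPM. These overlapping genes held far fewer reads than the leading genes, and whether reads of one were counted for the other was not tested.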
